A study of Mus musculus with 18 samples.

Results

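Expression of 10 genes for liver plasma proteins and apolipoproteins (Alb, Apoa1, Apoa2, Apob, Ttr, Fga, Fgb, Ambp, Apoe and Orm3) was followed in RNA-seq of thymic epithelial cells (TEC) from Kat7 knockout (KO) and wildtype (WT) mice. The genes were taken by symbol from the deposited count table and are 10 of its 27179 genes. All 10 passed the low-count filter that left 19364 genes for testing. In mTEChi, the medullary TEC with high MHC class II, 8 of the 10 were lower in KO than in WT cells and none was called higher. Of all tested genes, 19.3% were called lower there and 17.1% higher. The count of lower genes fell to 4 without WT mTEChi pool 2 or without KO mTEChi pool 6, where 14% and 14.5% of all tested genes were called lower. Ambp, although lower in KO mTEChi, and Orm3 were higher in KO mTEClo (medullary TEC with low MHC class II) and KO cTEC (cortical TEC). Apoa1 (log2 fold change -3.63) and Apob (-2.81) were lower in KO cTEC too, as was Apoa2 with a less stable call. No genotype difference was called for Apoe in any subset.

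Most proteins of blood plasma are secreted by hepatocytes, and their genes are kept largely liver-specific by hepatocyte transcription factors such as those of the HNF4, FOXA and C/EBP families. Medullary TEC are an exception: they transcribe many genes of peripheral organs at low levels and present the products to developing T cells, and for a share of these genes the regulator Aire, made mainly in mTEChi, is required. Kat7 (also named HBO1) encodes a lysine acetyltransferase that acts on histones. Within the gene set, Alb encodes serum albumin, Ttr transthyretin (a carrier of thyroid hormone and of retinol-binding protein), Fga and Fgb the alpha and beta chains of fibrinogen, Ambp the precursor of alpha-1-microglobulin and bikunin, and Orm3 an orosomucoid, a family of acute-phase plasma proteins. Apoa1 and Apoa2 encode the main proteins of high-density lipoprotein, Apob the structural protein of chylomicrons and of very-low-density and low-density lipoprotein, and Apoe a ligand of low-density lipoprotein receptors that is also made by macrophages and other cells outside the liver.

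The libraries came from 6 pools of C57BL/6 mice, pools 4 to 6 labelled Kat7 knockout and pools 1 to 3 labelled wildtype, and each pool gave 1 library of mTEChi, mTEClo and cTEC. This made 18 libraries in 6 groups of 3: KO mTEChi, WT mTEChi, KO mTEClo, WT mTEClo, KO cTEC and WT cTEC. The deleted exons, the cells in which Kat7 was lost, the ages of the mice and the days of sorting or sequencing are not given by the sources used here, so a batch that coincided with the genotype cannot be told apart from it. A library is a bulk sample, so fewer cells that transcribe a gene and less RNA per cell cannot be told apart in any value below.

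Kat7 itself checked the labels. It averaged 2.33 ± 0.753 CPM (counts per 1000000 reads after TMM scaling of the libraries) in KO mTEChi and 54.2 ± 5.72 CPM in WT mTEChi, 1.23 ± 0.642 CPM in KO mTEClo and 46.5 ± 9.94 CPM in WT mTEClo, and 3.22 ± 0.95 CPM in KO cTEC and 72.2 ± 13.2 CPM in WT cTEC (SD, n = 3 libraries in each group). Aire averaged 677 ± 38.0 CPM in KO mTEChi and 1184 ± 75.7 CPM in WT mTEChi, a log2 fold change of -0.81 that lay at the threshold (adjusted p = 0.04997 by edgeR's quasi-likelihood test). In cTEC it averaged 17.3 ± 5.38 CPM in KO and 49.8 ± 24.1 CPM in WT cells. Aire was not called in mTEClo, at 39.3 ± 15.2 CPM in KO and 37.6 ± 18.9 CPM in WT cells. Its log2 fold change there was 0.07 (adjusted p = 0.897 by the same test). Total counts ran from 6802970 to 13373646 in KO mTEChi against 3554089 to 8445355 in WT mTEChi, from 14411708 to 19356071 in KO mTEClo against 6565309 to 9815559 in WT mTEClo, and from 15822957 to 20054360 in KO cTEC against 13300969 to 18338441 in WT cTEC. The summed level of 13 TEC identity genes overlapped between genotypes in both medullary subsets, and lay at 12738 to 15588 CPM in KO cTEC and 10805 to 12127 CPM in WT cTEC. Single genes of that list moved within these sums: 8 were higher and 2 lower in KO mTEChi (median log2 fold change 0.82), 8 higher and 2 lower in KO mTEClo, and 7 higher and 4 lower in KO cTEC. Foxn1, the master regulator of TEC, averaged 286 ± 36.0 CPM in KO mTEChi and 112 ± 16.0 CPM in WT mTEChi (SD, n = 3), with a log2 fold change of 1.36 (adjusted p = 7.83e-06), and was higher in the other KO subsets too. The part of this change in the results on the 10 genes was not tested.

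Coordinates are of GRCm38.p6 in RefSeq, the assembly that mm10, the build of the counts, stands for. Alb is at chr5:90460870-90476602 on the plus strand, next to Afp and Afm. Apoa1 is at chr9:46228630-46230469 on the plus strand in a cluster with Apoc3, Apoa4 and Apoa5, Apoa2 at chr1:171221564-171226379 on the plus strand, and Apob at chr12:7977629-8016839 on the plus strand. Fga (chr3:83026153-83033627, plus strand) and Fgb (chr3:83042246-83049863, minus strand) are neighbours in the fibrinogen cluster with Fgg. Ambp (chr4:63143275-63154172, minus strand) and Orm3 (chr4:63356069-63359506, plus strand) share a region of chromosome 4. Apoe is at chr7:19696244-19701310 on the minus strand and is followed by Apoc1. No exon of the 10 genes overlapped an exon of another annotated gene. Of all stretches of 75 bases in their transcripts, the read length, none occurred in a transcript of another gene for 9 of the 10, and for Orm3 it was 1 of 699 stretches, shared with Orm2.

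The 250 bases before the transcription start are shown for 4 of the genes. Alb, Fga and Fgb were lower in KO mTEChi, and Ambp was lower in KO mTEChi and higher in KO mTEClo and KO cTEC. The mTEChi calls of Alb, Fgb and Ambp were lost under some alternatives, as given below. The sequences are RefSeq's for GRCm38.p6, 5′ to 3′ on the strand of the gene, and capitals mark matches to the searched motifs on either strand: CCAAT, on the reverse strand ATTGG (the CCAAT box), and TTGCAA, its own reverse complement (C/EBP-type).
Alb, chr5:90460620-90460869, plus strand: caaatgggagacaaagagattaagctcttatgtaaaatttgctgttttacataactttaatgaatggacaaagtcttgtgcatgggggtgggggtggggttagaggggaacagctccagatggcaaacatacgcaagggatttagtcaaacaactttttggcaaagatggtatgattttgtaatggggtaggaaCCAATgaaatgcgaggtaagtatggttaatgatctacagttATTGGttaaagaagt
Fga, chr3:83025903-83026152, plus strand: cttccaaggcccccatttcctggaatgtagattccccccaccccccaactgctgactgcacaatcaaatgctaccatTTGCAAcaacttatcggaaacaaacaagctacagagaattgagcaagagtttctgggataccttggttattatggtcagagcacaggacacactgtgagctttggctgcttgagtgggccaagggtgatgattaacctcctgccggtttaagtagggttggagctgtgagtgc
Fgb, chr3:83049864-83050113, minus strand: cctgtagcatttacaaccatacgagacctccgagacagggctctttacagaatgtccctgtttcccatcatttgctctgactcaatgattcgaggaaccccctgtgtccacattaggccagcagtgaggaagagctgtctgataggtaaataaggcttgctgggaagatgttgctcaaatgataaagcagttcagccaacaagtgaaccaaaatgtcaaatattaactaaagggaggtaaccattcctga
Ambp, chr4:63154173-63154422, minus strand: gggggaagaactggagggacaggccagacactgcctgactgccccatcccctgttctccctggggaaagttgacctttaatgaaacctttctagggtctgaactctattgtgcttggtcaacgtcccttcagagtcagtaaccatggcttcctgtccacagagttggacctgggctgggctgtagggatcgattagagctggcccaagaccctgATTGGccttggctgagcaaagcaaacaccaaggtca

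Windows were at hand for 9 of the 10 genes, and shares are of 32851 RefSeq promoter windows of 250 bases. CCAAT, held by 33.9% of windows, was found at bases -56 to -52 and -15 to -11 before the start of Alb, at -36 to -32 before Ambp, and before Apoa2. The letters TATAAA, held by 12.4%, were found before Apob, Orm3, the first start of Apoa2 and the second start of Apoe. TTGCAA, held by 5.34%, was found at -173 to -168 before Fga. TGTTTAC (the FOXA core, 3.17% of windows) was found before the first start of Apoa2. AAAGTCC (HNF4-type, 3.58% of windows) was found before its second start, so neither window held both. GGGCGG, the GC box held by 32.7% of windows, was found before none of the 9 genes. The windows of Fgb and Apoa1 held no match to any of these motifs. These are matches of letters and no binding was measured.

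In WT cells, 9 of the 10 genes had their highest mean level in mTEChi, and Apoe had it in cTEC. Per kilobase of transcript, the order in WT mTEChi was Apoa1 at 201 ± 10.2 CPM per kb, Apoe at 199 ± 33.6, Apoa2 at 37.0 ± 2.06, Ttr at 26.0 ± 6.59, Ambp at 13.3 ± 1.48, Fgb at 8.74 ± 1.63, Orm3 at 7.21 ± 1.28, Alb at 4.05 ± 0.568, Fga at 1.76 ± 0.323 and Apob at 1.33 ± 0.304 (SD, n = 3). Apoa1 and Apoe in this order did not differ beyond their spread, nor did Fgb and Orm3, nor Fga and Apob. Albumin, the most abundant plasma protein, thus ranked below most of the set, and Apoe alone was high in all 3 subsets, at 1436 ± 166 CPM per kb in WT mTEClo and 2240 ± 238 CPM per kb in WT cTEC.

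**Figure D1:**
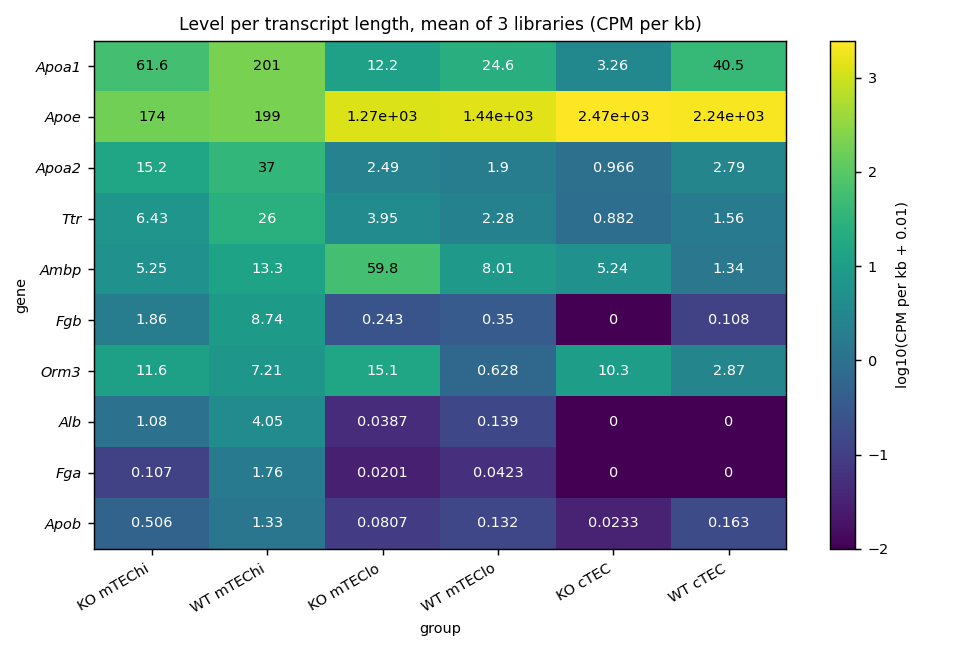
Mean level per kilobase of transcript of each gene (rows, ordered by the level in WT mTEChi) in the 6 groups of 3 libraries (columns, each subset with KO left of WT); the number in a cell is the mean CPM per kb and the colour its log10 after adding 0.01. Apoe reached 2469 CPM per kb in KO cTEC, while Alb and Fga stood at 0 in KO cTEC and in WT cTEC.

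Against WT mTEClo, 8 of the 10 genes were higher in WT mTEChi and Apoe was lower, where 32.6% of all tested genes were called higher and 26.7% lower. The log2 fold changes of the higher genes other than Fga ran from 3.05 for Apoa1 to 4.96 for Alb (SE 0.34 and 0.73). Fga had 110 reads in WT mTEChi and 3 reads in WT mTEClo, a ratio of 45.8 with a counting interval of 15.3 to 225 (95%, exact, counting error only). Ambp had 14.7, 18.3 and 16.1 CPM in WT mTEChi and 13.1, 7.77 and 8.78 CPM in WT mTEClo, a log2 difference of 0.73 (SE 0.41) that was not called in the fit of all groups (adjusted p = 0.137) and was called when only these groups were fitted (adjusted p = 0.00756). Its alternatives spanned adjusted p = 0.00756 to 0.309.

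Against WT cTEC, 9 of the 10 genes were higher in WT mTEChi, where 35.9% of all tested genes were called higher and 28.5% lower. Alb had 166 reads in WT mTEChi and no read in the 3 WT cTEC libraries, which makes it at least 146-fold higher when the floor of 3 reads over the group is used for WT cTEC. Fga had no read there either and was at least 97.1-fold higher in WT mTEChi. Apoa1 was the gene that WT cTEC held most of after Apoe: it had 208, 188 and 199 CPM in WT mTEChi and 59.7, 40.6 and 19.3 CPM in WT cTEC, a log2 difference of 2.32 (SE 0.32, adjusted p = 3.15e-06 by edgeR). The call of Orm3 (log2 difference 1.36, adjusted p = 0.00284) was lost when only these groups were fitted (0.0518, range 0.000448 to 0.0518). For Apoa1, the 3 WT cTEC libraries spread about their mean, 39.9 CPM, by an SD of 20.2.

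Between the other subsets, WT mTEClo and WT cTEC differed in 4 of the genes. Ambp and Alb were higher in WT mTEClo, where 13% of all tested genes were called higher, and Apoe and Orm3 were lower, where 14.4% were. When only these groups were fitted, 1 gene was higher and 1 lower, where 5.4% and 9.58% of all tested genes were. Ambp, at 9.88 ± 2.82 CPM in WT mTEClo and 1.65 ± 1.42 CPM in WT cTEC (SD, n = 3), differed by 2.65 on the log2 scale (SE 0.47, adjusted p = 0.00037 by edgeR). Alb rested on 6 reads in WT mTEClo and none in WT cTEC, at least 4.24-fold higher with these 6 reads taken as exact. Its call was lost without WT mTEClo pool 3 (adjusted p = 0.119, alternatives 0.00616 to 0.162). Apoa1 averaged 24.2 ± 14.7 CPM in WT mTEClo and 39.9 ± 20.2 CPM in WT cTEC and was not called (adjusted p = 0.102); without WT mTEClo pool 3, which held 40.6 CPM against 19.5 and 12.4 CPM in pools 1 and 2, it was (adjusted p = 0.00699), as it was without WT cTEC pool 3 (adjusted p = 0.00653, alternatives up to 0.482). Fgb had 13 reads in WT mTEClo and 7 in WT cTEC, and was called without WT cTEC pool 1, which held all 7 (adjusted p = 0.0228, alternatives up to 0.595).

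The KO and WT libraries were then compared within each subset, first in mTEChi, where 9 of the 10 genes had their highest WT level. Of the 10 genes, 8 fell in KO mTEChi relative to WT mTEChi and none rose at an adjusted p below 0.05 (edgeR, Benjamini-Hochberg over 19364 genes), where 19.3% of all tested genes were called lower and 17.1% higher. The median log2 fold change of the 10 genes was -1.55, against -0.11 for all tested genes. For each of the 8, every KO library lay below every WT library. The share of all tested genes separated in this way was not counted, so the separation adds no support to the calls. The count of lower genes depended on single libraries: it was 4 without WT mTEChi pool 2, 5 without WT mTEChi pool 3 and 4 without KO mTEChi pool 6, with 14%, 12.7% and 14.5% of all tested genes called lower, and no gene was called higher in these fits. With DESeq2 the calls of Fgb and Ambp were lost.

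**Figure D2:**
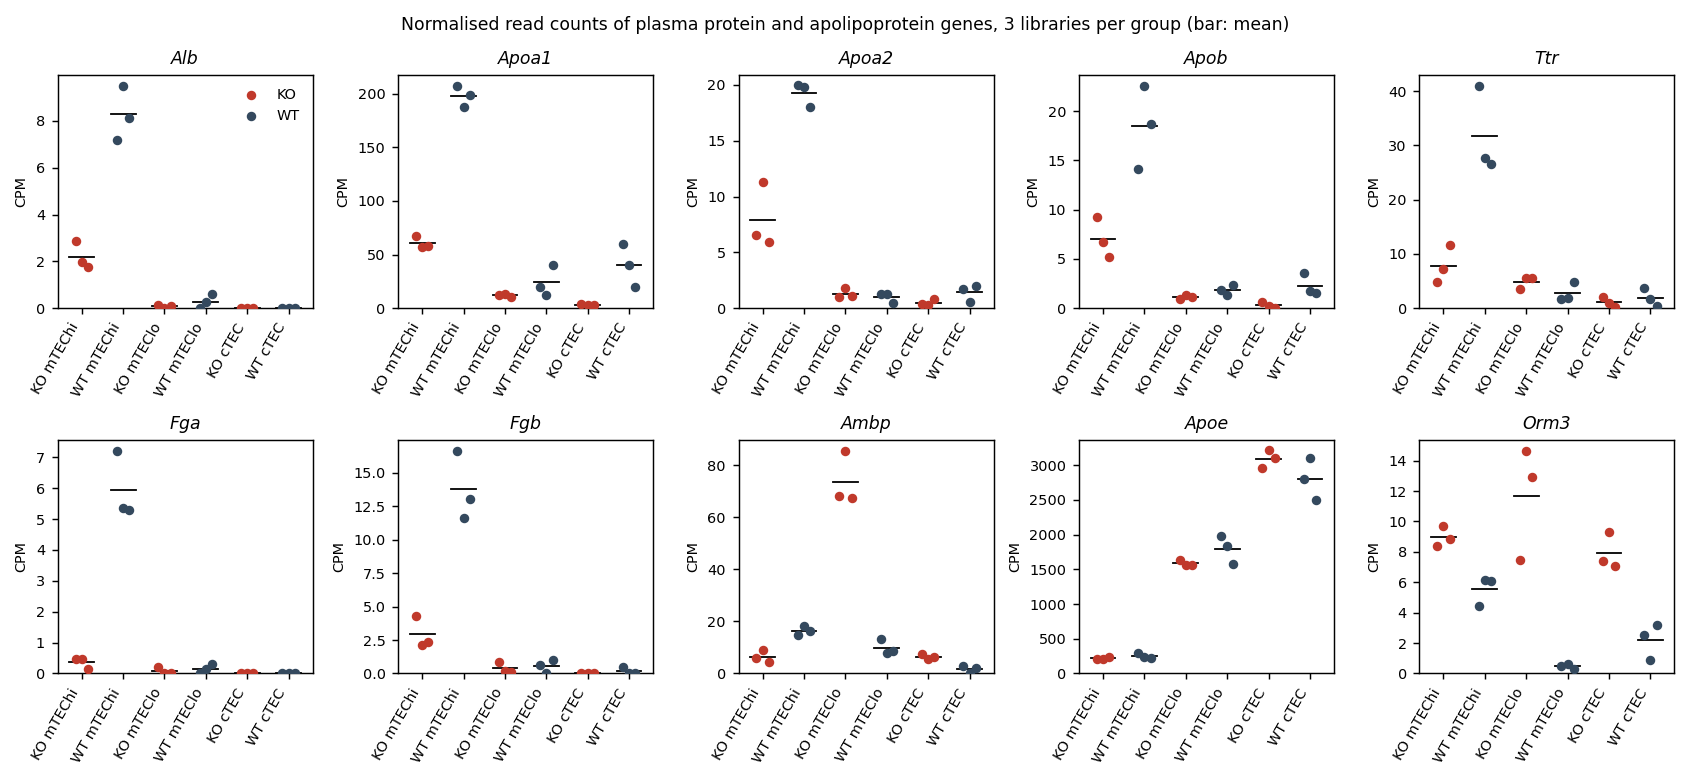
Normalised read counts (CPM, linear axes from 0) of the 10 genes in the 18 libraries: each point is 1 library, each bar the mean of the 3 libraries of a group, KO in red and WT in dark blue. In mTEChi the KO points lie below all WT points for every gene except Apoe, where they overlap, and Orm3, where they lie above; Ambp and Orm3 stand highest in KO mTEClo.

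The fibrinogen chains and albumin were among the lowest in level. Fga had 4, 6 and 1 reads in KO mTEChi (pools 4, 5 and 6) and 26, 45 and 39 reads in WT mTEChi (pools 1, 2 and 3), which is 0.360 ± 0.185 CPM against 5.95 ± 1.09 CPM (SD, n = 3). Its log2 fold change of -3.93 (SE 0.79, adjusted p = 0.00125) was the largest of the set in mTEChi and was called under each of the 11 alternatives run. Fgb had 4.31, 2.13 and 2.36 CPM in KO mTEChi and 16.6, 11.6 and 13.02 CPM in WT mTEChi. The fold change of Fgb was -2.23 on the log2 scale (SE 0.72, adjusted p = 0.0229), and its call held in 5 of 11 alternatives, with adjusted p from 4.1e-05 to 0.148. It was lost without WT mTEChi pool 1 (0.0731), pool 2 (0.0535) or pool 3 (0.0664), without KO mTEChi pool 5 (0.0856) or pool 6 (0.0787), and with DESeq2 (0.148). Alb had 24, 26 and 12 reads in KO mTEChi, or 2.87, 1.97 and 1.77 CPM, and 26, 80 and 60 reads in WT mTEChi, or 7.20, 9.51 and 8.14 CPM. The groups did not overlap, and the log2 fold change was -1.91 (SE 0.57, adjusted p = 0.0155). Its call was lost without WT mTEChi pool 2 (adjusted p = 0.0726) or pool 3 (0.0557), or without KO mTEChi pool 5 (0.0603) or pool 6 (0.0611), and held in 7 of 11 alternatives, the lowest adjusted p being 9.32e-05.

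Apoa1, Apoa2 and Apob were lower. Apoa1, of high-density lipoprotein, had 67.1, 56.7 and 58.2 CPM in KO mTEChi and 208, 188 and 199 CPM in WT mTEChi, a log2 fold change of -1.71 (SE 0.31, adjusted p = 0.000383) called under all 11 alternatives. Apoa2, of the same particle, had 6.58, 11.3 and 5.89 CPM in KO mTEChi and 19.9, 19.8 and 18.0 CPM in WT mTEChi. The KO libraries of Apoa2 spread more widely than the WT libraries, with pool 5 highest. Its log2 fold change was -1.26 (SE 0.38, adjusted p = 0.0146), lost without KO mTEChi pool 4 (0.063) or pool 6 (0.0674), over a range of 0.000957 to 0.0674. Apob had 9.21, 6.76 and 5.16 CPM in KO mTEChi and 14.1, 22.6 and 18.7 CPM in WT mTEChi. The change of Apob was -1.40 on the log2 scale (SE 0.39, adjusted p = 0.0096), lost without WT mTEChi pool 2 (0.0567), the highest library, over a range of 0.000324 to 0.0567.

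The carriers Ttr and Ambp were also lower. Ttr had 4.78, 7.14 and 11.6 CPM in KO mTEChi and 41.0, 27.6 and 26.6 CPM in WT mTEChi, a log2 fold change of -2.02 (SE 0.55, adjusted p = 0.00789) called under all 11 alternatives. Ambp had 5.98, 9.04 and 4.42 CPM in KO mTEChi and 14.7, 18.3 and 16.1 CPM in WT mTEChi. The groups did not overlap for either gene. Ambp changed by -1.31 on the log2 scale (SE 0.42, adjusted p = 0.0209), a call that was lost without WT mTEChi pool 2 (0.0698) or pool 3 (0.0523), without KO mTEChi pool 4 (0.0625) or pool 6 (0.0808), and with DESeq2 (0.0652), over a range of 0.000778 to 0.0808.

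Orm3 and Apoe were not called. Orm3 had 8.37, 9.72 and 8.84 CPM in KO mTEChi and 4.43, 6.18 and 6.10 CPM in WT mTEChi. All 3 KO libraries lay above the WT libraries, yet the log2 fold change of 0.66 (SE 0.35) had an adjusted p of 0.14 in the fit of all groups. It was called when only these groups were fitted (adjusted p = 0.0141, alternatives 0.0141 to 0.281). Apoe averaged 217 ± 14.6 CPM in KO mTEChi and 249 ± 42.0 CPM in WT mTEChi (SD, n = 3), with overlapping libraries and a log2 fold change of -0.19 (SE 0.12, adjusted p = 0.228).

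**Figure D3:**
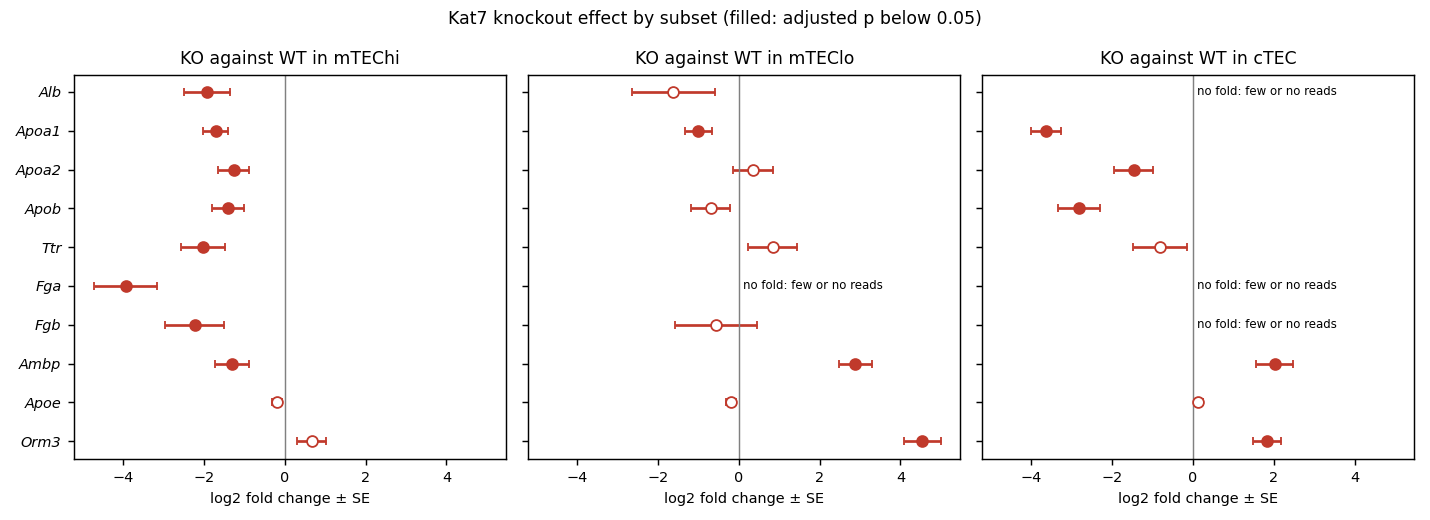
Log2 fold change of KO against WT in each subset (x axis, edgeR; bars are the SE) for the 10 genes (rows); filled points had an adjusted p below 0.05. In mTEChi 8 filled points lie left of 0, and Ambp and Orm3 are filled and right of 0 in mTEClo and in cTEC.

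Some markers of other cells differed between the genotypes in mTEChi, where 17.1% of all tested genes were called higher and 19.3% lower. The summed level of 16 macrophage and dendritic cell markers was 838 to 1006 CPM in KO mTEChi and 1588 to 1645 CPM in WT mTEChi. Of the 14 of these that were tested, 9 were lower and 1 was higher, and none of the 16 was at 0 in either group. Of 10 fibroblast and mural markers, 3 were higher and 3 lower, and their sum was 561 to 653 CPM in KO mTEChi and 307 to 322 CPM in WT mTEChi. The 6 endothelial markers summed to 73.0 to 81.0 CPM in KO mTEChi and 53.2 to 56.8 CPM in WT mTEChi, with 1 of 3 tested markers higher and 1 lower. The sums of 12 thymocyte markers overlapped, at 103 to 115 CPM in KO mTEChi and 85.3 to 110 CPM in WT mTEChi. Of these 12, 1 was higher and 3 were lower. The part of these cells in the results was not tested. The 45S ribosomal precursor Rn45s took 0.324 ± 0.0447% of counts in KO mTEChi and 0.563 ± 0.179% in WT mTEChi, and Lars2, a gene in which stray ribosomal reads are known to be counted, 1.40 ± 0.0831% in KO and 1.99 ± 0.233% in WT mTEChi (SD, n = 3).

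In mTEClo, 3 of the 10 genes were called. Ambp and Orm3 were higher in KO than in WT mTEClo and Apoa1 was lower, 2 of 10 genes where 18.9% of all tested genes were called higher and 1 of 10 where 15.8% were called lower. These counts were near the shares. Ambp had 68.3, 85.6 and 67.3 CPM in KO mTEClo and 13.1, 7.77 and 8.78 CPM in WT mTEClo. Every KO library held at least 67.3 CPM and no WT library more than 13.1 CPM, and the log2 fold change was 2.89 (SE 0.40, adjusted p = 1.48e-05). Orm3 had 110, 260 and 253 reads in KO mTEClo, or 7.44, 14.7 and 12.9 CPM, and 5, 5 and 2 reads in WT mTEClo, or 0.511, 0.648 and 0.298 CPM. The log2 fold change of Orm3 was 4.54 (SE 0.46, adjusted p = 2.7e-07), the largest rise in the set. Both calls held under all 11 alternatives.

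Apoa1 in mTEClo rested on single libraries. It had 11.9, 13.3 and 10.8 CPM in KO mTEClo and 19.5, 12.4 and 40.6 CPM in WT mTEClo, so the groups overlapped and WT pool 3 was highest. The log2 fold change was -0.99 (SE 0.34, adjusted p = 0.0281), and without WT mTEClo pool 3 it was -0.42 (adjusted p = 0.35). The call was also lost without KO mTEClo pool 4 (0.0666) or pool 6 (0.0881) and in a limma-voom fit with the pool as a random block (0.144), which changes the method as well as the block, over a range of 0.00511 to 0.35. The other 7 genes were not called. Ttr had 3.45, 5.52 and 5.51 CPM in KO mTEClo and 1.64, 1.81 and 4.91 CPM in WT mTEClo, a log2 difference of 0.84 (adjusted p = 0.305) of opposite sign to that in mTEChi. Apoa2 averaged 1.30 ± 0.44 CPM in KO and 0.99 ± 0.472 CPM in WT mTEClo, and Apob 1.12 ± 0.175 CPM in KO and 1.84 ± 0.543 CPM in WT mTEClo (SD, n = 3). Alb, Fga and Fgb rested on few reads, with 4, 3 and 18 reads over the 3 KO mTEClo libraries and 6, 3 and 13 reads over the 3 WT mTEClo libraries. Apoe averaged 1585 ± 37.1 CPM in KO mTEClo and 1796 ± 208 CPM in WT mTEClo and was not called (log2 fold change -0.18, adjusted p = 0.272).

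The mTEClo libraries also differed in depth and in other measures. Rn45s took 0.359 ± 0.0568% of counts in KO mTEClo and 1.11 ± 0.128% in WT mTEClo, and Lars2 1.23 ± 0.213% in KO and 3.04 ± 0.68% in WT mTEClo (SD, n = 3). The summed macrophage and dendritic cell markers overlapped, at 116 to 145 CPM in KO mTEClo and 138 to 158 CPM in WT mTEClo, where 2 of the 16 had no read. The 6 endothelial markers summed to 55.1 to 77.0 CPM in KO mTEClo and 24.4 to 33.2 CPM in WT mTEClo, with 1 of 3 tested markers higher and none lower. The fibroblast and mural markers summed to 720 to 823 CPM in KO mTEClo and 1095 to 1239 CPM in WT mTEClo, with 3 of 10 higher and 3 lower, and the thymocyte markers to 81.4 to 93.5 CPM in KO and 54.3 to 67.3 CPM in WT mTEClo, with 3 of 12 higher and 1 lower. Of all tested genes, 18.9% were called higher and 15.8% lower in KO mTEClo. The part of these markers in the results was not tested.

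In cTEC, 2 of the 10 genes rose and 3 fell in KO relative to WT cells, where 22.3% of all tested genes were called higher and 26.7% lower. Both counts were near these shares. When only the cTEC groups were fitted, 1 was higher and 2 were lower, where 16.7% and 20.3% of all tested genes were. Apoa1 had 3.83, 3.24 and 2.58 CPM in KO cTEC and 59.7, 40.6 and 19.3 CPM in WT cTEC. Every KO library lay far below the lowest WT library, WT pool 3, and the log2 fold change of -3.63 (SE 0.38, adjusted p = 1.82e-07) was larger than that in mTEChi. Apob had 0.661, 0.259 and 0.0526 CPM in KO cTEC, from 10, 4 and 1 reads, and 3.57, 1.75 and 1.49 CPM in WT cTEC, a log2 fold change of -2.81 (SE 0.53, adjusted p = 0.000189). Both calls held under all 11 alternatives. Apoa2 had 0.396, 0.324 and 0.789 CPM in KO cTEC and 1.75, 0.584 and 2.02 CPM in WT cTEC, with overlap between the groups. Its log2 fold change of -1.47 (SE 0.49, adjusted p = 0.0175) lost its call without WT cTEC pool 3 (0.0948), without KO cTEC pool 4 (0.0574) or pool 5 (0.0735), in the limma-voom fit with the pool as a random block (0.0831) and when only these groups were fitted (0.131), over a range of 0.00208 to 0.131.

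Ambp and Orm3 were higher in KO cTEC, as in KO mTEClo. Ambp had 7.33, 5.70 and 6.37 CPM in KO cTEC and 2.77, 0.0531 and 2.13 CPM in WT cTEC, the low value being 1 read in pool 2. The log2 fold change of Ambp was 2.02 (SE 0.46, adjusted p = 0.00127), and it lost its call when only these groups were fitted (adjusted p = 0.059, range 0.000271 to 0.059). Orm3 had 7.40, 9.33 and 7.10 CPM in KO cTEC and 2.55, 0.902 and 3.20 CPM in WT cTEC, with no overlap. It rose by 1.84 on the log2 scale (SE 0.34, adjusted p = 0.000187), a call kept under all 11 alternatives. No difference was called for the remaining genes. Ttr had 2.05, 0.972 and 0.210 CPM in KO cTEC and 3.71, 1.65 and 0.373 CPM in WT cTEC, wide in both groups. Apoe averaged 3088 ± 130 CPM in KO cTEC and 2802 ± 298 CPM in WT cTEC (log2 fold change 0.14, adjusted p = 0.355). Alb and Fga had no read in any of the 6 cTEC libraries; the floor of 3 reads over a group allows up to 0.0605 CPM in KO cTEC and 0.0584 CPM in WT cTEC. Fgb had no read in KO cTEC and 7 in WT cTEC, all in pool 1. With these 7 reads taken as exact, the floor of 3 reads makes it at least 2.25-fold lower. It was not called (adjusted p = 0.115 by edgeR).

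Markers of other cells differed between the genotypes in cTEC too, where 22.3% of all tested genes were called higher and 26.7% lower. The macrophage and dendritic cell markers summed to 43.9 to 54.4 CPM in KO cTEC and 158 to 223 CPM in WT cTEC, with 5 of 14 tested markers lower and none higher. The 12 thymocyte markers summed to 273 to 431 CPM in KO cTEC and 75.8 to 161 CPM in WT cTEC, with 9 of 12 higher. The fibroblast and mural markers summed to 2425 to 2561 CPM in KO cTEC and 1267 to 1436 CPM in WT cTEC, although 6 of 10 were lower and 2 higher. The endothelial markers summed to 11.1 to 15.7 CPM in KO cTEC and 26.5 to 42.8 CPM in WT cTEC, with 1 of 3 tested markers lower. None of these markers was at 0 in either group, and their part in the results was not tested.

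The difference between subsets in the effect of the genotype was tested for each gene with an interaction term. For mTEChi against mTEClo, the effect was more negative in mTEChi for Ttr (-2.86 on the log2 scale, SE 0.82, adjusted p = 0.0232), Ambp (-4.19, SE 0.58, adjusted p = 5.92e-05) and Orm3 (-3.87, SE 0.59, adjusted p = 0.000154), 3 of 10 genes where 6.77% of all tested genes were called in that direction. None was called in the other direction, where 6.71% were. The call of Ttr held in 10 of 17 alternatives and was lost without WT mTEChi pool 1 (0.0626), WT mTEClo pool 1 (0.0645) or pool 2 (0.0679), KO mTEChi pool 4 (0.0561) or pool 5 (0.053), or KO mTEClo pool 5 (0.0525) or pool 6 (0.0532), over a range of 0.000785 to 0.0679. For Alb, Apob, Fga and Fgb the fall in mTEChi was not shown to differ from the change in mTEClo in the fit of all groups or under any alternative. The interaction of Apoa2 was -1.62 (SE 0.63, adjusted p = 0.0966) and was called when only the compared groups were fitted (-1.45, adjusted p = 0.0445, range 0.0445 to 0.247). That of Apoa1 was -0.71 (SE 0.46, adjusted p = 0.341) and was called without WT mTEClo pool 3, its highest WT mTEClo library (-1.28, adjusted p = 0.0488, range 0.0488 to 0.628).

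For mTEChi against cTEC, Apoa1 fell less in mTEChi than in cTEC (difference 1.93, SE 0.48, adjusted p = 0.00477) and Ambp changed in opposite directions (-3.33, SE 0.63, adjusted p = 0.000441), 1 gene in each direction where 18.3% and 13.2% of all tested genes were called. For mTEClo against cTEC, the difference was positive for Apoa1 (2.64, SE 0.50, adjusted p = 0.000634), Apob (2.12, SE 0.72, adjusted p = 0.0343) and Orm3 (2.69, SE 0.59, adjusted p = 0.0022), 3 of 10 where 16.4% of all tested genes were called. None was negative, where 9.55% were. Apob kept its call in 9 of 17 alternatives, over a range of 0.00537 to 0.0966, and lost it without WT mTEClo pool 1 (0.0541) or pool 2 (0.0785), WT cTEC pool 1 (0.0871), KO mTEClo pool 5 (0.0669) or pool 6 (0.057), or KO cTEC pool 5 (0.0758) or pool 6 (0.096), and when only these groups were fitted (0.0966). Without WT cTEC pool 2, which held 1 read of Ambp, 5 genes were positive, with 17.7% of all tested genes called: Ambp (adjusted p = 0.00462) and Apoa2 (0.012) were added. Over all alternatives the adjusted p ran from 0.00462 to 0.776 for Ambp and from 0.012 to 0.145 for Apoa2.

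Within KO cells the subsets were compared in the same way. Against KO mTEClo, 5 of the 10 genes were higher in KO mTEChi and 2 lower, where 23% and 22.4% of all tested genes were called. Ambp, at 6.48 ± 2.35 CPM in KO mTEChi and 73.7 ± 10.2 CPM in KO mTEClo (SD, n = 3), was lower, with a log2 difference of -3.46 (SE 0.41, adjusted p = 1.06e-06), so that its highest group was KO mTEClo. Orm3 averaged 8.98 ± 0.686 CPM in KO mTEChi, 11.7 ± 3.76 CPM in KO mTEClo and 7.94 ± 1.21 CPM in KO cTEC, and no difference among the 3 KO subsets was called for it (adjusted p from 0.181 to 0.643). Ttr averaged 7.85 ± 3.48 CPM in KO mTEChi and 4.83 ± 1.19 CPM in KO mTEClo and was not called either (adjusted p = 0.334). Fga had 11 reads in KO mTEChi and 3 in KO mTEClo, a ratio of 6.75 with a counting interval of 1.78 to 37.7; all 3 were in pool 4, and without KO mTEClo pool 4 the difference was called (adjusted p = 0.00833, alternatives up to 0.189).

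Against KO cTEC, 7 genes were higher in KO mTEChi and Apoe was lower, where 34% and 28.4% of all tested genes were called. Alb was at least 36.2-fold, Fga at least 6.42-fold and Fgb at least 46.7-fold higher, each against no read in KO cTEC. KO mTEClo exceeded KO cTEC in 6 genes and was lower in Apoe, where 21.2% and 15.8% of all tested genes were called. Apoa1, for example, averaged 12.01 ± 1.25 CPM in KO mTEClo and 3.22 ± 0.627 CPM in KO cTEC (SD, n = 3), a log2 difference of 1.91 (adjusted p = 0.000465), where in WT cells no difference was called. With the pool as a block the 6 became 5, Apoa2 being lost (adjusted p = 0.0558). Apoa2 was also lost without KO mTEClo pool 5 (0.171) or KO cTEC pool 4 (0.11) or pool 5 (0.14), Apob without KO cTEC pool 6 (0.0733), and Fgb without KO mTEClo pool 4 (0.152) or KO cTEC pool 4 (0.062), pool 5 (0.066) or pool 6 (0.0758).

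Apoe was lowest in mTEChi in both genotypes, where the other genes, Ambp and Orm3 in KO cells apart, had their highest means. Its 18 libraries fell into 3 levels by subset: 204 to 297 CPM in mTEChi, 1564 to 1980 CPM in mTEClo and 2503 to 3213 CPM in cTEC, with the genotypes overlapping at each level. In KO cells it was lower in mTEChi than in mTEClo with a log2 difference of -2.87 (SE 0.13, adjusted p = 5.69e-12) and lower in mTEClo than in cTEC with a difference of -0.96 (SE 0.12, adjusted p = 2.64e-06). In WT cells the differences were -2.85 (SE 0.13, adjusted p = 2.14e-12) and -0.64 (SE 0.12, adjusted p = 0.000693).

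Wider lists of liver genes were counted in the same fits, and their counts stand beside 19.3% lower and 17.1% higher of all tested genes in mTEChi. The lists were chosen with earlier results of these data known, so the counts are a description. In KO against WT mTEChi, 6 of 10 tested apolipoproteins outside the set were lower and 1 higher (median log2 fold change -1.46), 6 of 16 liver coagulation proteins lower and 1 higher (median -1.22), 14 of 36 other plasma proteins lower and 2 higher (median -0.89), and 8 of 20 hepatocyte enzymes and transporters lower and 1 higher (median -1.11). Apoc3, an inhibitor of lipoprotein lipase, averaged 11.02 ± 2.54 CPM in KO mTEChi and 84.5 ± 15.2 CPM in WT mTEChi (SD, n = 3; log2 fold change -2.94, adjusted p = 4.8e-06). Fgg, the third fibrinogen chain, averaged 9.64 ± 0.563 CPM in KO mTEChi and 35.2 ± 4.14 CPM in WT mTEChi (-1.87, adjusted p = 9.73e-05). Afp, the fetal relative of albumin, averaged 0.876 ± 0.504 CPM in KO mTEChi and 8.82 ± 2.30 CPM in WT mTEChi (-3.34, adjusted p = 0.000938). Saa1, an acute-phase apolipoprotein of high-density lipoprotein, had a log2 fold change of -2.71 (adjusted p = 8.18e-06) and Gc, the vitamin D binding protein, of -2.39 (adjusted p = 0.000182). The exceptions that were higher included Clu, a clusterin that also has roles outside plasma, at 1956 ± 218 CPM in KO mTEChi and 1046 ± 110 CPM in WT mTEChi, and Pros1, the anticoagulant protein S.

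**Figure D4:**
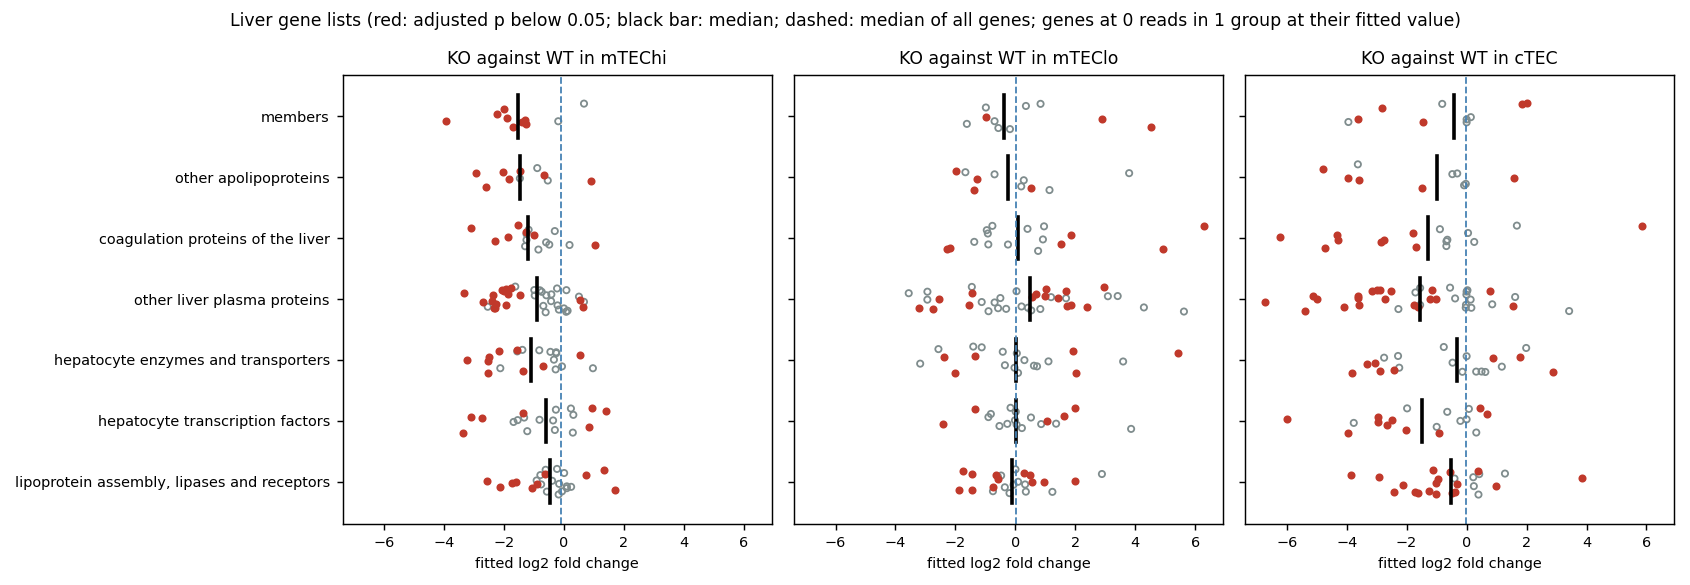
Fitted log2 fold change of KO against WT (x axis) of every tested gene of 7 liver gene lists (rows, the 10 genes described here at the top) in the 3 subsets; each point is 1 gene, red where its adjusted p was below 0.05, the black bar the median of the list and the dashed line the median of all tested genes. In mTEChi the 7 black bars lie left of the dashed line; points of genes without a read in 1 group rest on the fit and are no measured fold.

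In KO against WT mTEClo the shares of all tested genes were 18.9% higher and 15.8% lower. Of 10 other apolipoproteins, 3 were lower and 1 higher. Of 16 coagulation proteins 4 were higher and 2 lower, of 36 other plasma proteins 10 were higher and 5 lower, and of 20 enzymes and transporters 3 were higher and 3 lower. The lower counts of the other plasma proteins and both counts of the enzymes and transporters were near the shares of all genes. With genes at 0 reads in 1 group put at their bound and those at the floor in both left out, the medians were 0.12, 0.41, 0.21 and -0.03 in that order, against 0.02 for all tested genes; the median of the other apolipoproteins was -0.25 and that of the enzymes and transporters 0.01 on fitted values, so their signs turned with this choice. Trf, the iron carrier transferrin, averaged 206 ± 12.7 CPM in KO mTEClo and 39.5 ± 5.80 CPM in WT mTEClo (SD, n = 3; log2 fold change 2.38, adjusted p = 2.78e-05). Serpinf2, an inhibitor of plasmin, had 209 reads in KO mTEClo and 3 in WT mTEClo, a ratio of 32.4 with a counting interval of 10.9 to 158. Apoa4, in the cluster of Apoa1, had a log2 fold change of -1.98 (adjusted p = 1.82e-05), and Saa1 of -3.22 (adjusted p = 5.74e-06).

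In KO against WT cTEC, 4 of 10 other apolipoproteins were lower and 1 higher, 8 of 16 coagulation proteins lower and 1 higher, 18 of 36 other plasma proteins lower and 2 higher, and 5 of 20 enzymes and transporters lower and 3 higher, where 26.7% of all tested genes were lower and 22.3% higher. The 5 lower enzymes and transporters were near that share. The medians with genes at their bounds were -0.95, -1.68, -1.63 and -0.31, against -0.03 for all tested genes. Apoa4 averaged 1.77 ± 0.917 CPM in KO cTEC and 49.98 ± 16.5 CPM in WT cTEC (SD, n = 3; log2 fold change -4.80, adjusted p = 6.04e-10). Fgg had 3 reads in KO cTEC and 267 in WT cTEC, a ratio of 0.0116 with a counting interval of 0.00238 to 0.0344. Afm, a vitamin E binding relative of albumin, was lower, with a log2 fold change of -3.58 (adjusted p = 1.33e-07) although Alb itself had no read in cTEC of either genotype.

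Genes that build, process and take up lipoproteins changed in both directions. Of 24 tested, 7 were lower and 3 higher in KO mTEChi, where 19.3% of all tested genes were lower and 17.1% higher. In KO mTEClo 7 were lower and 5 higher, where 15.8% and 18.9% of all tested genes were. In KO cTEC 15 were lower and 3 higher, where 26.7% and 22.3% were. The count of higher genes was near its share in mTEClo and below it in mTEChi and cTEC. Mttp, which loads lipid onto apolipoprotein B, averaged 27.1 ± 1.20 CPM in KO mTEChi and 40.5 ± 5.75 CPM in WT mTEChi (SD, n = 3; adjusted p = 0.0554, not called), and was lower in KO cTEC, with a log2 fold change of -1.01 (adjusted p = 0.00153). Pltp, the phospholipid transfer protein, and Abca1, the exporter that loads lipid onto apolipoprotein A-I, were higher in KO mTEChi by 1.72 (adjusted p = 6.27e-06) and 1.34 (adjusted p = 1.48e-05).

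Of 18 hepatocyte transcription factors tested, 4 were lower and 3 higher in KO mTEChi, where 19.3% of all tested genes were lower and 17.1% higher. In KO mTEClo 2 were lower and 3 higher, where 15.8% and 18.9% of all tested genes were. In KO cTEC 8 were lower and 2 higher, where 26.7% and 22.3% were. The counts in mTEChi and mTEClo were near these shares. Hnf4a, a regulator of many apolipoprotein genes in liver, was low, at 1.10 ± 0.656 CPM in KO mTEChi and 2.71 ± 0.855 CPM in WT mTEChi (adjusted p = 0.178). Its relative Hnf4g was lower in KO cells of all 3 subsets, with log2 fold changes of -1.36 in mTEChi (adjusted p = 8.61e-05), -1.36 in mTEClo (adjusted p = 0.000119) and -2.48 in cTEC (adjusted p = 5.49e-08). Foxa1 and Foxa3 were higher in KO mTEClo, by 1.99 (adjusted p = 8.66e-07) and 1.64 (adjusted p = 0.000132). Foxa1 was also higher in KO mTEChi (0.82, adjusted p = 0.00605), and Foxa2 was lower in KO cTEC (-2.66, adjusted p = 1.29e-05 by edgeR).

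Of 18 nearest protein-coding neighbours tested, 2 were higher and 6 lower in KO mTEChi, 3 higher and 3 lower in KO mTEClo, and 3 higher and 8 lower in KO cTEC. The shares of all tested genes were 17.1% higher and 19.3% lower in mTEChi, 18.9% and 15.8% in mTEClo, and 22.3% and 26.7% in cTEC, so the mTEClo counts were near them. In the Apoa1 cluster, Apoc3 and Apoa4 were lower in KO cells of all 3 subsets, as Apoa1 was. In mTEClo, however, the KO and WT libraries of Apoa1 and Apoc3 overlapped. The mTEClo call of Apoa1 was lost without WT mTEClo pool 3 (-0.42, adjusted p = 0.35 by edgeR). On the other side the adjacent Sik3 was higher in KO mTEChi (0.43, adjusted p = 0.0363) and KO mTEClo (0.69, adjusted p = 0.00158) and not called in cTEC (-0.08, adjusted p = 0.71). The more distant Pafah1b2 was higher in all 3, by 0.34 in mTEChi, 0.68 in mTEClo and 0.88 in cTEC (adjusted p = 0.0196, 5.14e-05 and 1.2e-06). The 3 fibrinogen genes were all lower in KO mTEChi. Beside Alb, Afp and Afm were lower in KO mTEChi and Ankrd17 was not called in any subset. Apoc1, beside Apoe, was not called in any subset, whereas Apoc2, farther along that cluster, was lower in all 3. Around Orm3, Orm1 was higher in KO mTEClo (log2 fold change 0.67, adjusted p = 0.0112) and lower in KO cTEC (-1.02, adjusted p = 0.000312), and Orm2 was not called. Orm1 and Orm2 share 13.8% and 14% of their stretches of 75 bases, so their split is less certain than the level of Orm3. Kif12, next to Ambp, was lower in KO mTEChi (-2.51, adjusted p = 6.36e-06) and in KO cTEC (-3.21, adjusted p = 1.41e-07), where Ambp was higher, and was not called in mTEClo.

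**Figure D5:**
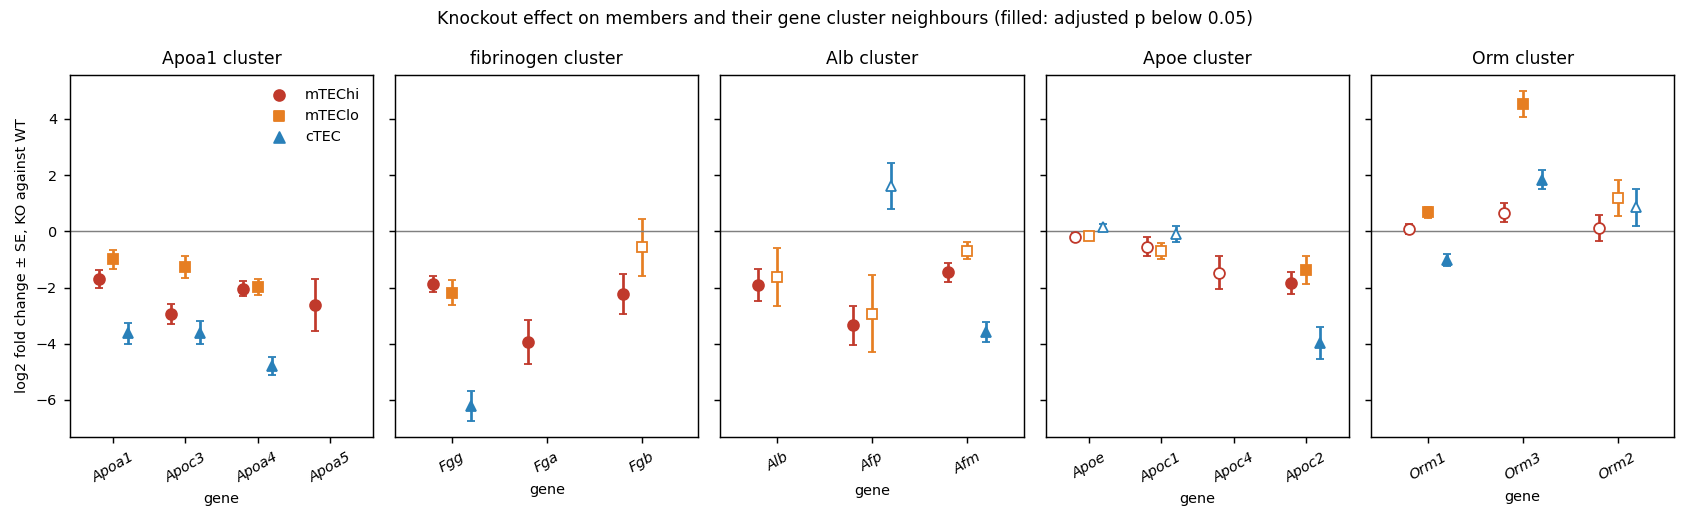
Log2 fold change of KO against WT (y axis; bars are the SE) for 5 gene clusters that hold a described gene, by subset (circles mTEChi, squares mTEClo, triangles cTEC); filled points had an adjusted p below 0.05, and genes with 3 or fewer reads in both groups or none in 1 group of a subset are not drawn. Apoa1, Apoc3 and Apoa4 lie below 0 in all 3 subsets, and Orm3 stands above its neighbours in mTEClo at 4.54.

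Across the 18 libraries, the patterns of the genes fell into kinds. As a description over libraries that share pools, subsets and depth, Pearson's r of log2 CPM between Alb and the other genes was 0.93 with Fga, 0.93 with Fgb, 0.89 with Apoa2, 0.88 with Apob, 0.83 with Ttr and 0.81 with Apoa1, but 0.17 with Ambp, 0.18 with Orm3 and -0.94 with Apoe. Apoa1 and Apob were closest to each other, at 0.97, and Ambp and Orm3 at 0.43. Among all tested genes, the pattern most like that of Alb was Slc45a2 (r = 0.99), that of Apoa1 A730036I17Rik (0.98), of Apoa2 Iglc1 (0.96), of Apob Sult1c2 (0.98), of Ttr Cga (0.95), of Fga Defb45 (0.97), of Fgb Calcr (0.97), of Ambp Efcab1 (0.90), of Apoe Mtmr11 (0.99) and of Orm3 Fmo6 (0.95).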

How the data were processed

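RNA was measured in 18 libraries, 3 for each of 6 groups. Libraries were made with the SMART-Seq v4 and Nextera XT kits, which do not mark strand, and read as paired 75-base reads, per the labels' protocols. The authors deposited raw read counts per gene, made with featureCounts on mm10, per the submitters' processing notes; the aligner is not given in the sources used here. All columns were matched to samples by name. Of the 27179 genes, 1312 have no symbol in the deposited table.

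Genes were filtered with edgeR's filterByExpr (minimum count 10), scaled by TMM and fitted with edgeR's quasi-likelihood test (edgeR 4.0.16, limma 3.58.1 and R 4.3.3) over all 6 groups, with 12 residual degrees of freedom. In all, 12 contrasts were fitted; p-values were adjusted by Benjamini-Hochberg over the 19364 genes tested in each, and called below 0.05. CPM are counts per 1000000 reads of TMM-scaled library size. For a group without reads, bounds use a floor of 3 reads over the group and take the reads of the other group as exact. Ratios with 1 to 3 reads have exact 95% intervals. Both cover counting error only, the bounds just that of the group without reads, since reads carried no molecular identifiers. Replicates are pools of mice, so p-values measure the spread between pools. The script was tested on simulated counts.

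The 10 genes and all lists were chosen with earlier results of these data known. From each list, up to 4 genes with the smallest adjusted p in a contrast were eligible to be named; for each of the 10 genes the tested gene with the highest Pearson r of log2 CPM (prior count 2) over the 18 libraries is named; Mttp, Hnf4a and genomic neighbours are given for their role or place. Alternatives were RLE scaling, no low-count filter, DESeq2 1.42.0, a fit of the compared groups alone, the pool as a replicate block (a fixed term in edgeR, or for KO against WT a random term in limma-voom), and leaving out each library. Subsets of 1 pool come from the same mice: deviations of same-pool libraries correlated at -0.000943 to 0.239, and limma's consensus correlation was 0.105. KO and WT share no pool.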

Additional observations from a re-analysis of the deposited data

Results flagged for a closer look

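For 5 genes the effect of the genotype, as a log2 fold change of KO against WT, differed between subsets by the interaction term of the edgeR fit. Ambp differed by -4.19 between mTEChi and mTEClo (adjusted p = 5.92e-05) and by -3.33 between mTEChi and cTEC (adjusted p = 0.000441), being lower in KO mTEChi and higher in the other KO subsets. Orm3 differed by -3.87 between mTEChi and mTEClo (adjusted p = 0.000154) and by 2.69 between mTEClo and cTEC (adjusted p = 0.0022). Apoa1 differed by 1.93 between mTEChi and cTEC (adjusted p = 0.00477) and by 2.64 between mTEClo and cTEC (adjusted p = 0.000634), falling most in KO cTEC. These 6 differences were called in 17 of 17 alternatives. Ttr differed by -2.86 between mTEChi and mTEClo (adjusted p = 0.0232) and Apob by 2.12 between mTEClo and cTEC (adjusted p = 0.0343), called in 10 and 9 of 17 alternatives.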

How the results depend on the processing

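Of 69 called results on the 10 genes, none reversed under any alternative: 751 of 807 values stayed past the threshold and 56 did not. Of 40 uncalled results, 20 of 536 values reversed and 17 passed the threshold. The number of genes called for KO against WT in mTEChi, 8, ran from 4 to 7 when 1 library was left out. In cTEC it was 3 in place of 5 when only the compared groups were fitted, with 16.7% of all tested genes higher and 20.3% lower. Between WT mTEClo and WT cTEC it was 2 in place of 4 in such a fit, with 5.4% higher and 9.58% lower. Positive differences of the genotype effect between mTEClo and cTEC, 3 in all, numbered up to 5 with 1 library left out. The cause was not tested.

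The replicate block for KO against WT was a random term in limma-voom, so that the method changed with it; calls were lost for Apoa1 in mTEClo (adjusted p = 0.144) and Apoa2 in cTEC (0.0831), and 8 genes were still called in mTEChi. For the other contrasts the pool was a fixed term in edgeR; a call was lost for Apoa2 between KO mTEClo and KO cTEC (0.0558) and gained for Orm3 in the difference between mTEChi and cTEC (0.0475). The block changed no other call.

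The reversed values, none past the threshold, belong to these results. For KO against WT, leaving out 1 library gave a range of -1.93 to 0.12 for Fgb in mTEClo (above 0 without WT pool 3), of -1.70 to 0.042 for Ttr in cTEC (above 0 without WT pool 1) and of -4.52 to 0 for Fgb in cTEC. Between WT mTEClo and WT cTEC it gave -0.52 to 0.17 for Apob and -0.10 to 1.41 for Ttr. Between KO mTEChi and KO cTEC, Ambp ran from -0.30 to 0.24, with -0.0022 with no filter and -0.0010 with the block. For the genotype effect in mTEChi against mTEClo, Apoe ran from -0.11 to 0.13, with 0.040 with no filter and 0.12 with only the compared groups, and Alb from -1.37 to 0.39. In mTEChi against cTEC, Apoa2 ran from -0.16 to 0.71.

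RLE scaling moved the median of all genes by at most 0.10 on the log2 scale. Depth limits Alb, Fga and Fgb outside mTEChi, where they had 0 to 18 reads per group, which limits what can be said of a fall there.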
